A study of Homo sapiens with 9 samples.

Results

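Accessible chromatin was examined at 10 genes whose products are surface antigens of Ewing sarcoma or enzymes that build its surface gangliosides: STEAP1, STEAP2, ENPP1, IL1RAP, LINGO1, NPY1R, NPY5R, B4GALNT1, ST8SIA1 and CD99. They were chosen by name, 10 of 20037 protein-coding genes, and every listed region that touched the GRCh38 gene or the 50 kb on either side was taken. The cells were SK-N-MC, an established Ewing sarcoma line, profiled by ATAC-seq, in which the transposase Tn5 cuts and tags open DNA. Hairpin 1 (shCHD4#1) and hairpin 2 (shCHD4#2) cells carried doxycycline-inducible short hairpin RNAs targeting CHD4, a chromatin remodeller that works within NuRD, and have the labelled genotype CHD4 knockdown. shScramble cells carried a non-targeting inducible hairpin, have the labelled genotype wildtype and served as the control. All cells, control included, had received doxycycline at 100 ng/ml for 48 h, and each sample of 100000 SK-N-MC cells was mixed with 100 Drosophila S2 cells. Each group had 3 biological replicates, 9 samples in all, but the region lists analysed here are 1 per group, so no difference between groups could be tested and each value below is a count in a single list. Both hairpins are set against the same shScramble list, so their differences from it are not independent.

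Ewing sarcoma is driven by a fusion of EWSR1 with an ETS factor, usually FLI1, which binds DNA with the ETS core GGAA and opens chromatin at GGAA repeats. The resulting cells display a set of membrane proteins and glycolipids that serve in diagnosis or as candidate targets of antibodies and engineered T cells. CD99 is the classical diagnostic antigen. STEAP1 and STEAP2 belong to a family of membrane metalloreductases, ENPP1 hydrolyses extracellular nucleotides, IL1RAP is the co-receptor shared by receptors of the interleukin-1 family, and LINGO1 is a membrane protein of the nervous system that restrains myelination. NPY1R and NPY5R are receptors of neuropeptide Y, which Ewing sarcoma cells release. Gangliosides are glycolipids that carry sialic acid. ST8SIA1 (GD3 synthase) adds a sialic acid to GM3, and B4GALNT1 (GM2/GD2 synthase) then adds the sugar that makes GD2.

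The 10 genes occupy 8 separate stretches of the genome, since the windows of STEAP1 and STEAP2 overlap, as do those of NPY1R and NPY5R, and these pairs share regions. Together the stretches held 132 listed regions with hairpin 1, 110 with hairpin 2 and 107 with shScramble. The whole lists had 122874 with hairpin 1, 83246 with hairpin 2 and 85779 with shScramble. The number at the surface antigen genes was thus 1.23 times the control with hairpin 1 (exact 95% interval 0.949 to 1.61, counting error only) and 1.03 times with hairpin 2 (0.781 to 1.35), against 1.43 times with hairpin 1 and 0.97 times with hairpin 2 over all chromosomes. With every list cut to its best 83246 regions, the length of the shortest list, the stretches held 83 regions with hairpin 1, 110 with hairpin 2 and 102 with shScramble. The hairpin 1 ratio was then 0.814, on the other side of 1. Read depth per sample is unknown. At the hairpins' target, CHD4, the gene with 5 kb on both sides held 9 regions with hairpin 1, 7 with hairpin 2 and 6 with shScramble, which does not show how far CHD4 was silenced. Of 6 Ewing sarcoma markers (NR0B1, NKX2-2, CCND1, PRKCB, CCK and LIPI), 5 had a gene end within 1 kb of a region with hairpin 1, 6 with hairpin 2 and 6 with shScramble. Their summed region number was 53 with hairpin 1, 45 with hairpin 2 and 48 with shScramble. Of 3 blood markers, 2 had a covered end with hairpin 1, 1 with hairpin 2 and 3 with shScramble, and of 2 liver markers 1 with hairpin 1, 1 with hairpin 2 and 0 with shScramble, with ALB at 0 regions in every list. Of 2 endothelial markers 1 had a covered end with hairpin 1, 1 with hairpin 2 and 1 with shScramble, but not the same gene. It was CDH5 in both hairpin lists and PECAM1 with shScramble. The summed region number of the blood markers was 11 with hairpin 1, 3 with hairpin 2 and 8 with shScramble. That of the endothelial markers was 14 with hairpin 1, 6 with hairpin 2 and 7 with shScramble, and that of the liver markers 3 with hairpin 1, 2 with hairpin 2 and 0 with shScramble. Genes of other cell types thus also had listed regions near their ends, and their part in the values below was not tested.

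The bases before the start site are shown for 5 members because the results turn on their start sites: a region reaches the promoter of STEAP1, STEAP2 and ST8SIA1 in every list, that of ENPP1 in all but hairpin 2 and that of NPY1R in all but hairpin 1. Each line gives the 250 bases upstream of the RefSeq start on the strand of the gene, 5′ to 3′, in GRCh38.p14 as given by RefSeq. Capitals mark the ETS core GGAA or its reverse complement TTCC.
STEAP1 (chr7:90154219-90154468, plus strand): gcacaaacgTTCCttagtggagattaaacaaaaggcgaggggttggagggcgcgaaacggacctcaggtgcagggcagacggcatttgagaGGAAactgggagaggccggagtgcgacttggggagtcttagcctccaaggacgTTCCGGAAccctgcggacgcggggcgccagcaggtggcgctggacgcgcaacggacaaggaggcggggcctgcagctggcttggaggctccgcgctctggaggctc
STEAP2 (chr7:90211490-90211739, plus strand): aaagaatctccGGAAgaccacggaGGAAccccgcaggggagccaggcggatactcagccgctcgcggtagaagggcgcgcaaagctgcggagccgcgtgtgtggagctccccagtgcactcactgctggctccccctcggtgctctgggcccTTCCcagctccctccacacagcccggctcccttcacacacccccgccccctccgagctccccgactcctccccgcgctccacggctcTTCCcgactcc
ENPP1 (chr6:131807770-131808019, plus strand): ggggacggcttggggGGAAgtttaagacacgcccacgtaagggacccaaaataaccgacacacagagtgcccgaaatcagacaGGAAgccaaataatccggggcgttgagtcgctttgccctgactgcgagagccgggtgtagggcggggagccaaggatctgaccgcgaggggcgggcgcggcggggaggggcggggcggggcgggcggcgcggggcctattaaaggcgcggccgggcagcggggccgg
NPY1R (chr4:163332597-163332846, minus strand): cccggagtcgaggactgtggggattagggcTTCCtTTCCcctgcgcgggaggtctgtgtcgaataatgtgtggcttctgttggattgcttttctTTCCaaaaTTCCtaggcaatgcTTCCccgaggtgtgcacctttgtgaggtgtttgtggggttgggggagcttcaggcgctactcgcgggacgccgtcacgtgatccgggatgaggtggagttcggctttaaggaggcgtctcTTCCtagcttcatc
ST8SIA1 (chr12:22334708-22334957, minus strand): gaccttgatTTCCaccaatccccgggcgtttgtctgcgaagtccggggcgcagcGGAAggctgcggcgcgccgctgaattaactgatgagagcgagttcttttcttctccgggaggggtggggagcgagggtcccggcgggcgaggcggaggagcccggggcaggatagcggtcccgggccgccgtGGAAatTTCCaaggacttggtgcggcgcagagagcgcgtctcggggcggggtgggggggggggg
The core occurs 4 times before STEAP1, 4 times before STEAP2, 2 times before ENPP1, 6 times before NPY1R and 4 times before ST8SIA1. The median over the 22199 promoters of protein-coding genes in the table is 3 and 92.5% hold at least 1. None of the 5 holds the double repeat GGAAGGAA (3.17% of all promoters on either strand) or the longer ETS site CCGGAAGT (4.41%). The GC box GGGCGG, found in 53.7% of all promoters on either strand, occurs 6 times before ENPP1, 1 time each before STEAP2 and ST8SIA1, and not in these bases before STEAP1 or NPY1R. GC content was 64.4% before STEAP1, 69.6% before STEAP2, 68.8% before ENPP1, 56.4% before NPY1R and 69.2% before ST8SIA1, with a median of 62% over all promoters.

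Region number moved in no shared direction over the 10 genes. With hairpin 1, 7 genes had more regions than with shScramble and 3 had fewer (70.8% of all protein-coding genes had more). With hairpin 2, 3 had more, 2 had fewer and 5 had the same number (38.2% of all genes had more and 20.4% the same). NPY1R and NPY5R hold the same regions and count as 2 genes, among the 3 with fewer and the 5 with the same number. Only STEAP1 and B4GALNT1 had more regions with both hairpins, 2 of 10 genes, against 35.2% of all protein-coding genes. No member had fewer with both, against 11.9% of all genes. With lists of equal length B4GALNT1 still had more with both, 9 with hairpin 1, 12 with hairpin 2 and 8 with shScramble, while STEAP1 had 5 with hairpin 1, 9 with hairpin 2 and 7 with shScramble. With 5 kb in place of 50 kb on both sides neither gene had more with both: STEAP1 had 5 with hairpin 1, 4 with hairpin 2 and 4 with shScramble, and B4GALNT1 had 3 with hairpin 1, 2 with hairpin 2 and 2 with shScramble. On the log2 scale, with 1 added to each count, the median ratio to shScramble was 0.13 with hairpin 1 and 0.00 with hairpin 2 over the members, and 0.36 with hairpin 1 and 0.00 with hairpin 2 over all genes.

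**Figure D1:**
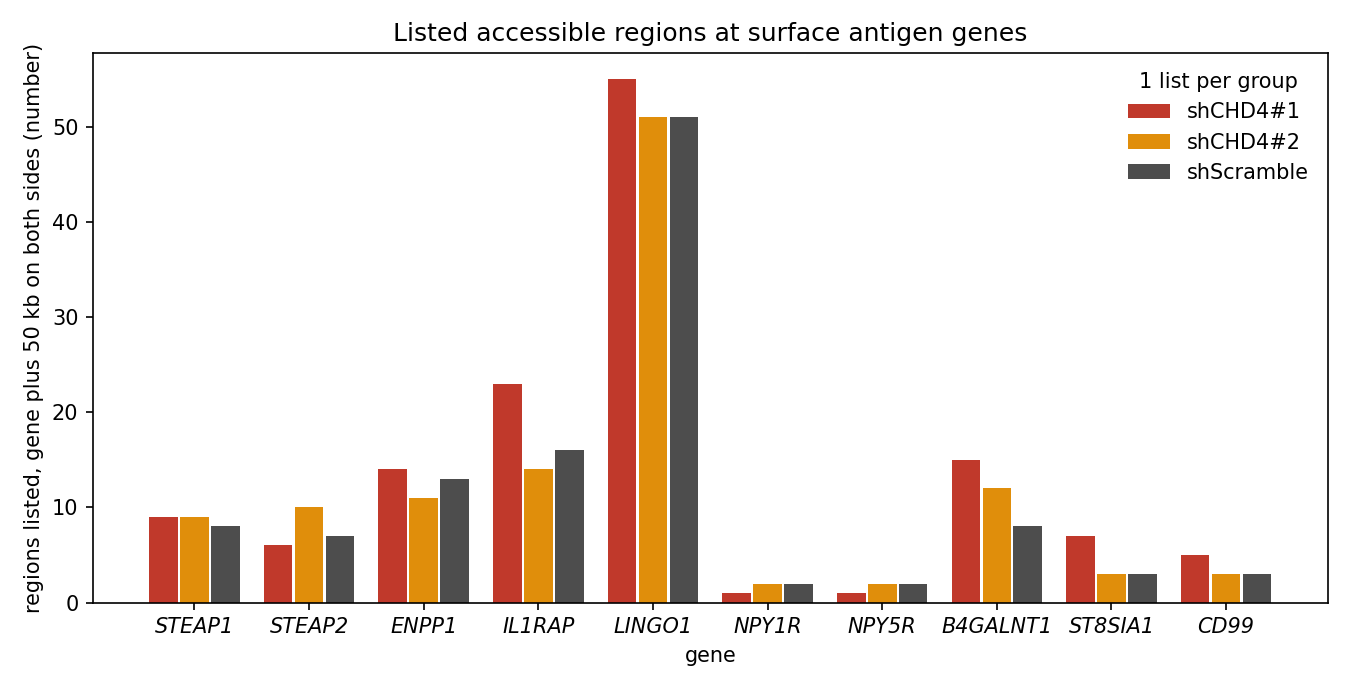
Number of listed regions in each gene with 50 kb on both sides (y axis) for the 10 genes (x axis), with 1 bar per list for hairpin 1, hairpin 2 and shScramble. LINGO1 stands highest with 55 regions with hairpin 1, 51 with hairpin 2 and 51 with shScramble, and the neuropeptide Y receptors lowest with 1 with hairpin 1, 2 with hairpin 2 and 2 with shScramble; there are no error bars because each group has 1 list.

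Joined where they share at least 1 bp, the regions of all lists made 122 merged regions at the surface antigen genes, out of 130790 in all. Of these, 52 were present in every list, which is 42.6% (Wilson 95% interval 34.2 to 51.5) against 33.2% of all merged regions. Gained with both hairpins, meaning in both hairpin lists and not with shScramble, were 9 (7.38%, against 10.0% of all). Lost with both, meaning with shScramble only, were 8 (6.56%, against 10.5%). A further 31 were listed with hairpin 1 only (25.4%, against 29.0%) and 8 with hairpin 2 only (6.56%, against 5.44%). Absent with hairpin 1 only were 4 (against 2.70% of all) and absent with hairpin 2 only 10 (against 9.11%). The intervals treat neighbouring regions as independent, which they are not. Regions joined through a region of another list need not overlap each other. Regions of single lists stood in the lower-ranked part of their list, here as in the whole series. The median best rank lay at the 73% point of the list for regions with hairpin 1 only and at the 74.4% point for those with hairpin 2 only, where 0% is the best. Over all chromosomes these points were 67.6% for hairpin 1 only and 68% for hairpin 2 only. For the 8 lost regions the median was 68.7% within shScramble, and for all lost regions of the series it was 69.1%. Of the 9 gained regions, 3 lie in a member gene.

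**Figure D2:**
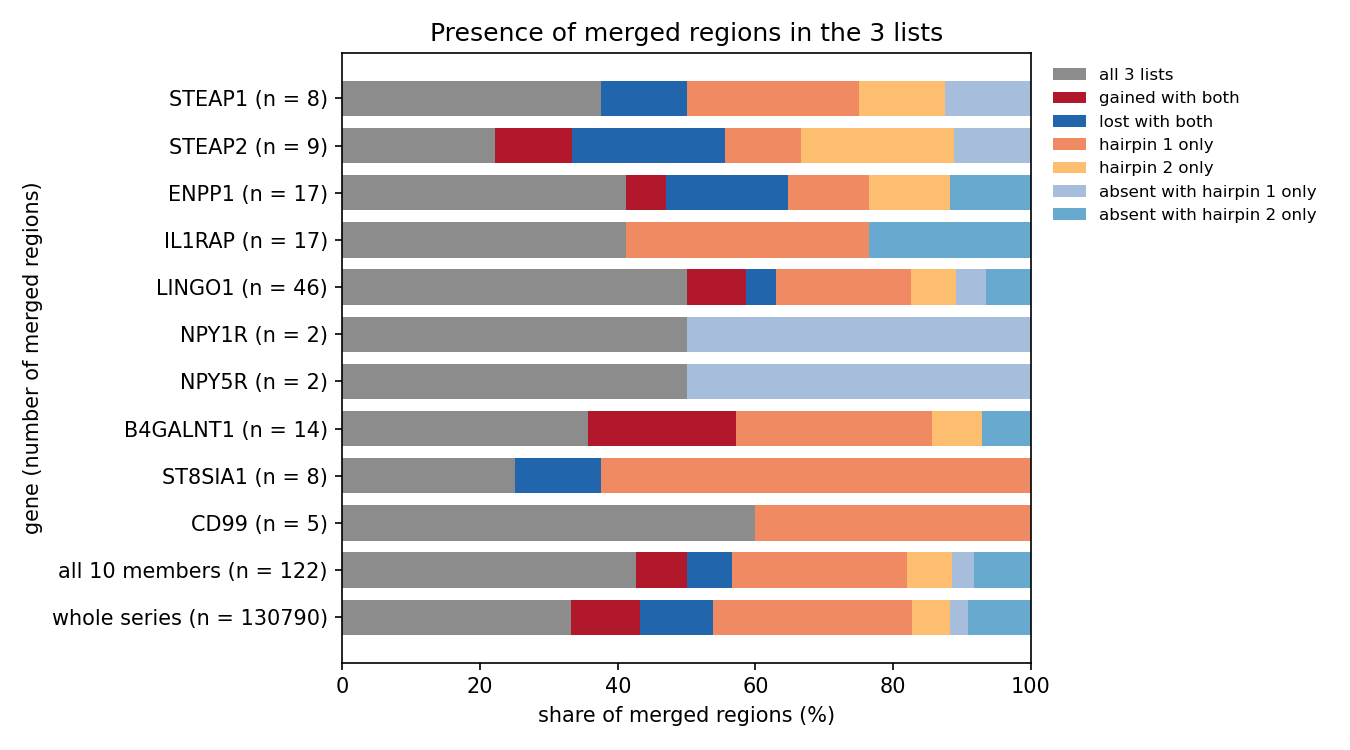
Share of merged regions (x axis, %) with each presence pattern in the 3 lists, for each gene, for the 10 genes together and for the whole series, with the number of merged regions in brackets. B4GALNT1 has the largest share gained with both (21.4%). IL1RAP, NPY1R, NPY5R and CD99 have none gained or lost with both. ST8SIA1 is made up mostly of regions listed with hairpin 1 only (62.5%).

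Counting bases in place of regions gave another order. Leaving out negative-valued regions and any of more than 20 kb, the 8 stretches had 307 kb covered with hairpin 1, 180 kb with hairpin 2 and 196 kb with shScramble. That is 1.57 times the control with hairpin 1 and 0.918 times with hairpin 2, against 1.41 times with hairpin 1 and 0.73 times with hairpin 2 over all chromosomes. LINGO1 held much of this length, part of it in wide regions near the end of a list. Without LINGO1 the covered length was 139 kb with hairpin 1, 73.8 kb with hairpin 2 and 105 kb with shScramble. This was 1.32 times the control with hairpin 1 and 0.703 times with hairpin 2. LINGO1 and B4GALNT1 had more bases covered with both hairpins (2 of 10, against 25.5% of all genes). STEAP1, ENPP1, NPY1R and NPY5R had fewer with both (4 of 10, against 18.8% of all genes). NPY1R and NPY5R hold the same regions, so 1 locus counts as 2 of these 4.

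**Figure D3:**
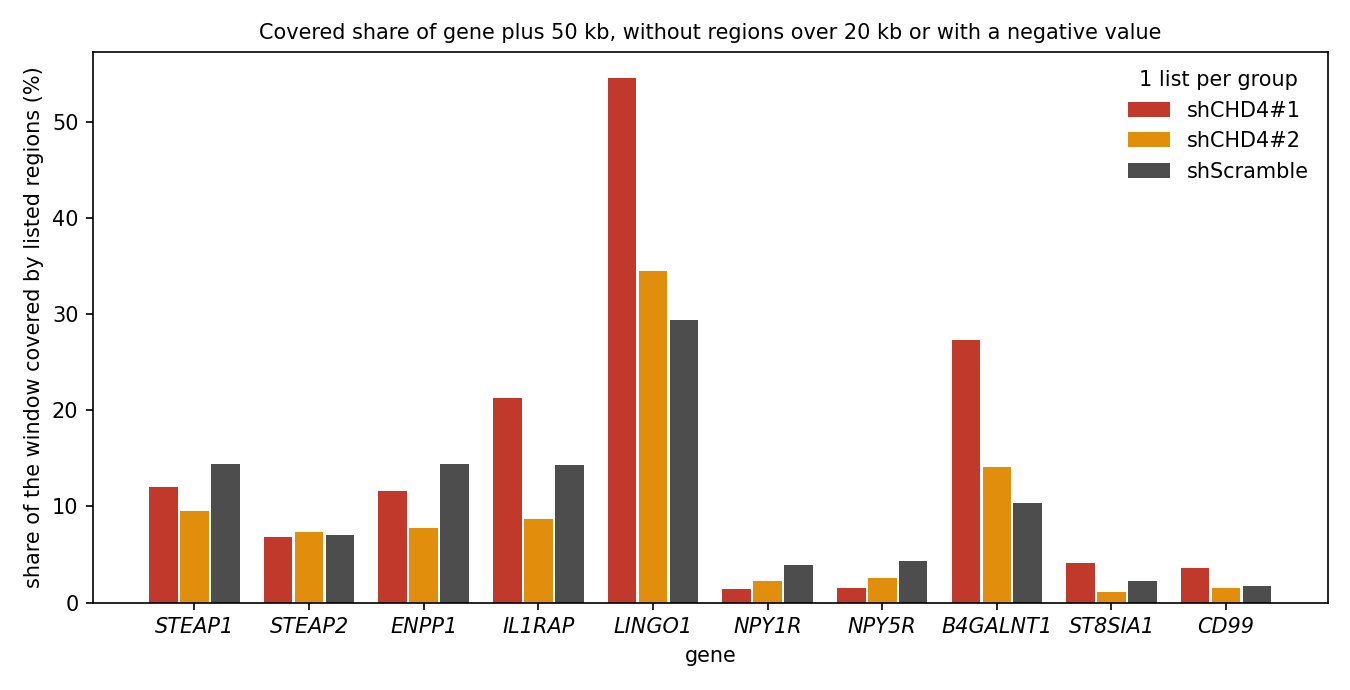
Share of each gene's window (gene plus 50 kb on both sides) covered by listed regions (y axis, %), by gene and list, without negative-valued regions and any of more than 20 kb. LINGO1 is covered over 54.6% with hairpin 1, 34.5% with hairpin 2 and 29.4% with shScramble. B4GALNT1 is covered over 27.3% with hairpin 1, 14.1% with hairpin 2 and 10.4% with shScramble. Regions near the end of a list count toward these shares.

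STEAP1, a membrane antigen first described in prostate, lies on chromosome 7 from 90154469 to 90164827. Its window held 9 regions with hairpin 1, 9 with hairpin 2 and 8 with shScramble. The covered length went the other way, with 13.3 kb with hairpin 1, 10.6 kb with hairpin 2 and 15.9 kb with shScramble. The hairpin lists thus held more regions but fewer covered bases in the window. This window takes in the start of STEAP2, and regions that touch STEAP1 itself numbered 3 with hairpin 1, 1 with hairpin 2 and 3 with shScramble. The start site was covered in every list by the merged region from 90153191 to 90157370. In it, hairpin 1 had regions from 90153191 to 90155370 and from 90155431 to 90157370, hairpin 2 a single region from 90153711 to 90155730, and shScramble regions from 90153191 to 90154500, 90154501 to 90155430 and 90156071 to 90156870. Just upstream, a block from 90146631 to 90153190 was a single region of 6560 bp with shScramble, ranked 84282 of 85779. In the same block hairpin 1 had a region from 90152171 to 90153090 at rank 8088 of 122874, and hairpin 2 had regions from 90151501 to 90152300 and, at rank 8120 of 83246, from 90152301 to 90153090. Further from the start in this block the hairpin lists also had poorly ranked regions, 90149511 to 90151000 at rank 121313 with hairpin 1 and 90149491 to 90150890 at rank 82066 with hairpin 2. For the regions of this upstream block nearest to the start the authors' p were 0.0121 with hairpin 1, 0.025 with hairpin 2 and 0.951 with shScramble. For the regions that cover the start itself they were 0.665 with hairpin 1, 0.2 with hairpin 2 and 0.625 with shScramble. Those upstream regions were 920 bp wide with hairpin 1, 790 bp with hairpin 2 and 6560 bp with shScramble. The p rank regions within 1 list and do not by themselves show a change between lists. Listed with hairpin 1 only were 90119301 to 90120860 and 90157371 to 90157900, the second of them inside the gene.

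STEAP2, the neighbouring metalloreductase gene (90211740 to 90243408), had 6 regions with hairpin 1, 10 with hairpin 2 and 7 with shScramble, so hairpin 1 was below the control and hairpin 2 above it. A pattern of fewer with hairpin 1 and more with hairpin 2 was found at 1.06% of all genes. It held with lists of equal length, with 4 with hairpin 1, 10 with hairpin 2 and 7 with shScramble. It also held without negative-valued regions and any of more than 20 kb. It did not hold under the other settings. With 100 kb on both sides there were 13 with hairpin 1, 14 with hairpin 2 and 11 with shScramble. Regions with an authors' p of 0.05 or less numbered 2 with hairpin 1, 0 with hairpin 2 and 1 with shScramble. Among the best 20000 of each list there were 2 with hairpin 1, 2 with hairpin 2 and 2 with shScramble, and with 5 kb on both sides 5 with hairpin 1, 10 with hairpin 2 and 5 with shScramble. Covered length differed little, with 8.95 kb with hairpin 1, 9.63 kb with hairpin 2 and 9.21 kb with shScramble. The STEAP2 start lies in a merged region from 90207351 to 90212080 that was present in every list. It held the best-ranked region of the window with hairpin 1 and with shScramble. The region over the start was 90209951 to 90212070 at rank 4424 with hairpin 1, 90210911 to 90212020 at rank 19282 with hairpin 2 and 90210661 to 90212080 at rank 7756 with shScramble. Hairpin 2 had its best-ranked region further into the gene, at rank 16002. A second annotated start, at 90213820, was covered with hairpin 2, by a region from 90212091 to 90214170, while the nearest region ended 990 bp away with shScramble and 1750 bp away with hairpin 1. Inside the gene, 9671 bp past that second start, the region from 90223491 to 90225590 was gained with both hairpins. It ranked 11333 of 122874 with hairpin 1 and 16002 of 83246 with hairpin 2, and the nearest shScramble region was 10660 bp away, the widest such distance among the 9 gained regions. Hairpin 2 alone listed 90214171 to 90214820 and 90231431 to 90231990 in the gene. At its far end, the merged region from 90243141 to 90246670, which reaches the cilia gene CFAP69, held regions of every list. Only the shScramble region from 90243141 to 90244320 touched STEAP2. The hairpin 2 regions began at 90244191, past the gene. The hairpin 1 region, 90245751 to 90246670, overlapped a hairpin 2 region and no shScramble region.

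Between the STEAP genes a region from 90187961 to 90188790 was lost with both hairpins. It ranked 57068 of 85779 with shScramble, and no hairpin region lay within 18600 bp. Past STEAP2, in CFAP69, the region from 90262011 to 90262770 was likewise listed with shScramble only and that from 90266421 to 90268140 with hairpin 1 only.

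ENPP1, an ectonucleotidase that also degrades the second messenger cGAMP outside the cell, lies on chromosome 6 from 131808020 to 131895155. Its window held 14 regions with hairpin 1, 11 with hairpin 2 and 13 with shScramble, and 21.8 kb was covered with hairpin 1, 14.6 kb with hairpin 2 and 27.1 kb with shScramble. With lists of equal length each held 11, and with 5 kb on both sides there were 5 with hairpin 1, 4 with hairpin 2 and 6 with shScramble. The lists differed in which region lay nearest to the start site. Hairpin 1 covered it (131806751 to 131808090). The nearest region began 71 bp past it with hairpin 2 (131808091 to 131809810) and ended 70 bp before it with shScramble (131806081 to 131807950). The hairpin 2 region was the only one of these with an authors' p of at most 0.05, at rank 9281 of 83246. All lists had a region within 1 kb of the start. Just past it, hairpin 1 also had 131808151 to 131809100 (rank 31023 of 122874) and shScramble 131808161 to 131809540 (rank 35219 of 85779). The region past the start thus lay at nearly the same place in every list. The hairpin 1 region over the start ranked 57199 of 122874, and the shScramble region that ended before it 83986 of 85779. Absence of a promoter of 300 bases (250 before the start and 50 after it) with hairpin 2 only was found at 3.46% of 22199 promoters.

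Further into ENPP1, the merged region from 131863451 to 131866800 was the strongest of the window and was present in every list, at rank 7916 with hairpin 1, 6889 with hairpin 2 and 3011 with shScramble. The region from 131862391 to 131863450 that abuts it counted as lost with both, although a hairpin region lay only 200 bp away. The other regions lost with both were 131782711 to 131783330, before the gene, and 131896631 to 131898880, just past it, with 16360 and 10510 bp to the nearest hairpin region. The region from 131923041 to 131924630 was gained with both, at ranks 41889 with hairpin 1 and 43347 with hairpin 2. It lies 23546 bp from CCN2, the gene of a secreted matricellular growth factor, and outside any protein-coding gene. Present in every list were also 131760401 to 131762310, 131764291 to 131766740, 131808091 to 131809810, 131826801 to 131830880, 131909391 to 131910680 and 131913111 to 131921880. Hairpin 2 lacked 131762311 to 131764270 and 131806081 to 131808090. Hairpin 1 alone listed 131929021 to 131930180 and 131939071 to 131939560, and hairpin 2 alone 131819461 to 131819900 and 131937151 to 131937850.

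IL1RAP, the co-receptor of interleukin-1, lies on chromosome 3 from 190514085 to 190659750. It had 23 regions with hairpin 1, 14 with hairpin 2 and 16 with shScramble, and 52.4 kb covered with hairpin 1, 21.3 kb with hairpin 2 and 35.1 kb with shScramble. Hairpin 1 was thus above the control and hairpin 2 below it, in number and in length, a direction in number shared by 23.0% of all genes. With lists of equal length both were below it, with 13 for hairpin 1, 14 for hairpin 2 and 16 for shScramble. With 5 kb on both sides both were above it, with 13 for hairpin 1, 10 for hairpin 2 and 8 for shScramble. Of its 17 merged regions none was gained or lost with both. The start was covered in every list within a merged region from 190511221 to 190518520. Downstream of it the region from 190520091 to 190529220 held the best-ranked shScramble region of the window, 190521371 to 190523420 at rank 5009 of 85779. Its best rank was 51711 of 122874 with hairpin 1 and 17172 of 83246 with hairpin 2. Regions from 190484381 to 190491480, 190501281 to 190506090, 190544031 to 190546660, 190595371 to 190598470 and 190696351 to 190704290 were also in every list. The hairpins differed at 10 merged regions, 6 with hairpin 1 only and 4 that hairpin 2 lacked. The first were 190497561 to 190500110, 190506101 to 190509450, 190561011 to 190561950, 190577071 to 190580760, 190587801 to 190590480 and 190677291 to 190678540. The others were 190566021 to 190567780, 190585161 to 190587560, 190691131 to 190694700 and 190708021 to 190710190. Of these 10 regions, 190585161 to 190587560 inside the gene ranked best, at 14335 with hairpin 1, with an authors' p of 0.0472, and 30883 with shScramble.

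LINGO1, a leucine-rich repeat membrane protein of neurons, lies on chromosome 15 from 77613027 to 77820900 and was the most densely listed of the 10 genes. Its window held 55 regions with hairpin 1, 51 with hairpin 2 and 51 with shScramble, or 17.9 per 100 kb with hairpin 1, 16.6 with hairpin 2 and 16.6 with shScramble. In regions per 100 kb it stood above 93.1% of all genes with hairpin 1, 95.6% with hairpin 2 and 97.8% with shScramble. With lists of equal length it held 33 with hairpin 1, 51 with hairpin 2 and 51 with shScramble. Numbers in the whole lists were nearly equal, but the hairpin lists covered more: 168 kb with hairpin 1, 106 kb with hairpin 2 and 90.6 kb with shScramble. Part of this length lay in wide regions near the end of a list. With hairpin 1, regions of 14670 and 12260 bp ranked 116890 and 116877 of 122874. The widest region with hairpin 2, of 7930 bp, ranked 79350 of 83246, and that with shScramble, of 4870 bp, ranked 21728 of 85779. Median region width was 2220 bp with hairpin 1, 1695 bp with hairpin 2 and 1560 bp with shScramble. Regions reaching an authors' p of 0.05 or less numbered 8 with hairpin 1, 10 with hairpin 2 and 3 with shScramble. Among the best 20000 regions of each list the numbers were closer, with 9 with hairpin 1, 10 with hairpin 2 and 8 with shScramble. Besides LINGO1 only B4GALNT1 had more such regions with both hairpins among the members (2 of 10, against 20.5% of all genes), and IL1RAP had fewer with both (1 of 10, against 9.37%).

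The best region of all 10 genes in the control list lay in LINGO1, from 77735941 to 77740640, at rank 396 of 85779 with an authors' p of 1.53e-05. Its counterpart ranked 1194 of 83246 with hairpin 2 (77736631 to 77741100) and 7377 of 122874 with hairpin 1 (77736181 to 77742040). Regions that ranked better in both hairpin lists included 77809361 to 77811070 with hairpin 1 at rank 2940 and 77809341 to 77810890 with hairpin 2 at rank 4315. The overlapping shScramble region, 77809681 to 77810860, stood at rank 33785. In the merged region from 77631201 to 77640190 both hairpin lists held exactly the same region, 77632871 to 77634750, at rank 9966 with hairpin 1 and 7463 with hairpin 2, against a best rank of 40256 with shScramble. At the 3′ end of the gene, the region from 77609761 to 77613440 ranked 4927 with hairpin 1, its counterpart from 77610651 to 77612750 ranked 7168 with hairpin 2 and that from 77610991 to 77612770 ranked 14211 with shScramble. Ranks in lists of different lengths do not by themselves show a change.

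RefSeq gives LINGO1 9 start sites. The outermost, at 77820900, was covered in every list, within a merged region from 77818691 to 77834600. The starts at 77820332 and 77820201 were covered with hairpin 1 and shScramble, and the nearest hairpin 2 region lay 269 and 400 bp away. The hairpin 1 region over them ranked 116888 of 122874 and the shScramble region 21728 of 85779. That nearby hairpin 2 region ranked 4696 of 83246. The start at 77819452 was covered with shScramble only, and the region nearest to it lay 349 bp away with hairpin 1 and 782 bp away with hairpin 2. At 77787049 hairpin 1 alone covered the start, in a region of 8580 bp at rank 116885 of 122874. At 77720751 it was covered with hairpin 2 and shScramble. The remaining starts, at 77707507, 77696495 and 77696148, had no region within 1 kb in any list.

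Of the 46 merged regions of LINGO1, 23 were not shared by all lists. Gained with both were 77571771 to 77576640, 77592621 to 77594240, 77715661 to 77718710 and 77754491 to 77757360, the last pair inside the gene. The first of them ranked 8965 of 83246 with hairpin 2 but 99962 of 122874 with hairpin 1, and all lay within 1670 bp of a shScramble region. Lost with both were 77594451 to 77596500 and 77727511 to 77728160, each within 300 bp of a hairpin region. Hairpin 1 alone listed a run between 77758121 and 77774060, made of 77758121 to 77760310, 77761081 to 77763550, 77766691 to 77768100, 77768101 to 77769140 and 77770731 to 77774060. It also alone listed 77666501 to 77669840, 77670861 to 77672160, 77794641 to 77796690 and 77796691 to 77798270. The best of these 9 stood at the 47.3% point of the hairpin 1 list. Hairpin 2 alone listed 77591431 to 77592400, 77728461 to 77731340 and 77801661 to 77804830. Hairpin 1 lacked 77663831 to 77666030 and 77789851 to 77792260, and hairpin 2 lacked 77618321 to 77619680, 77725201 to 77727270 and 77835131 to 77837280. The remaining 23 were present in every list.

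**Figure D4:**
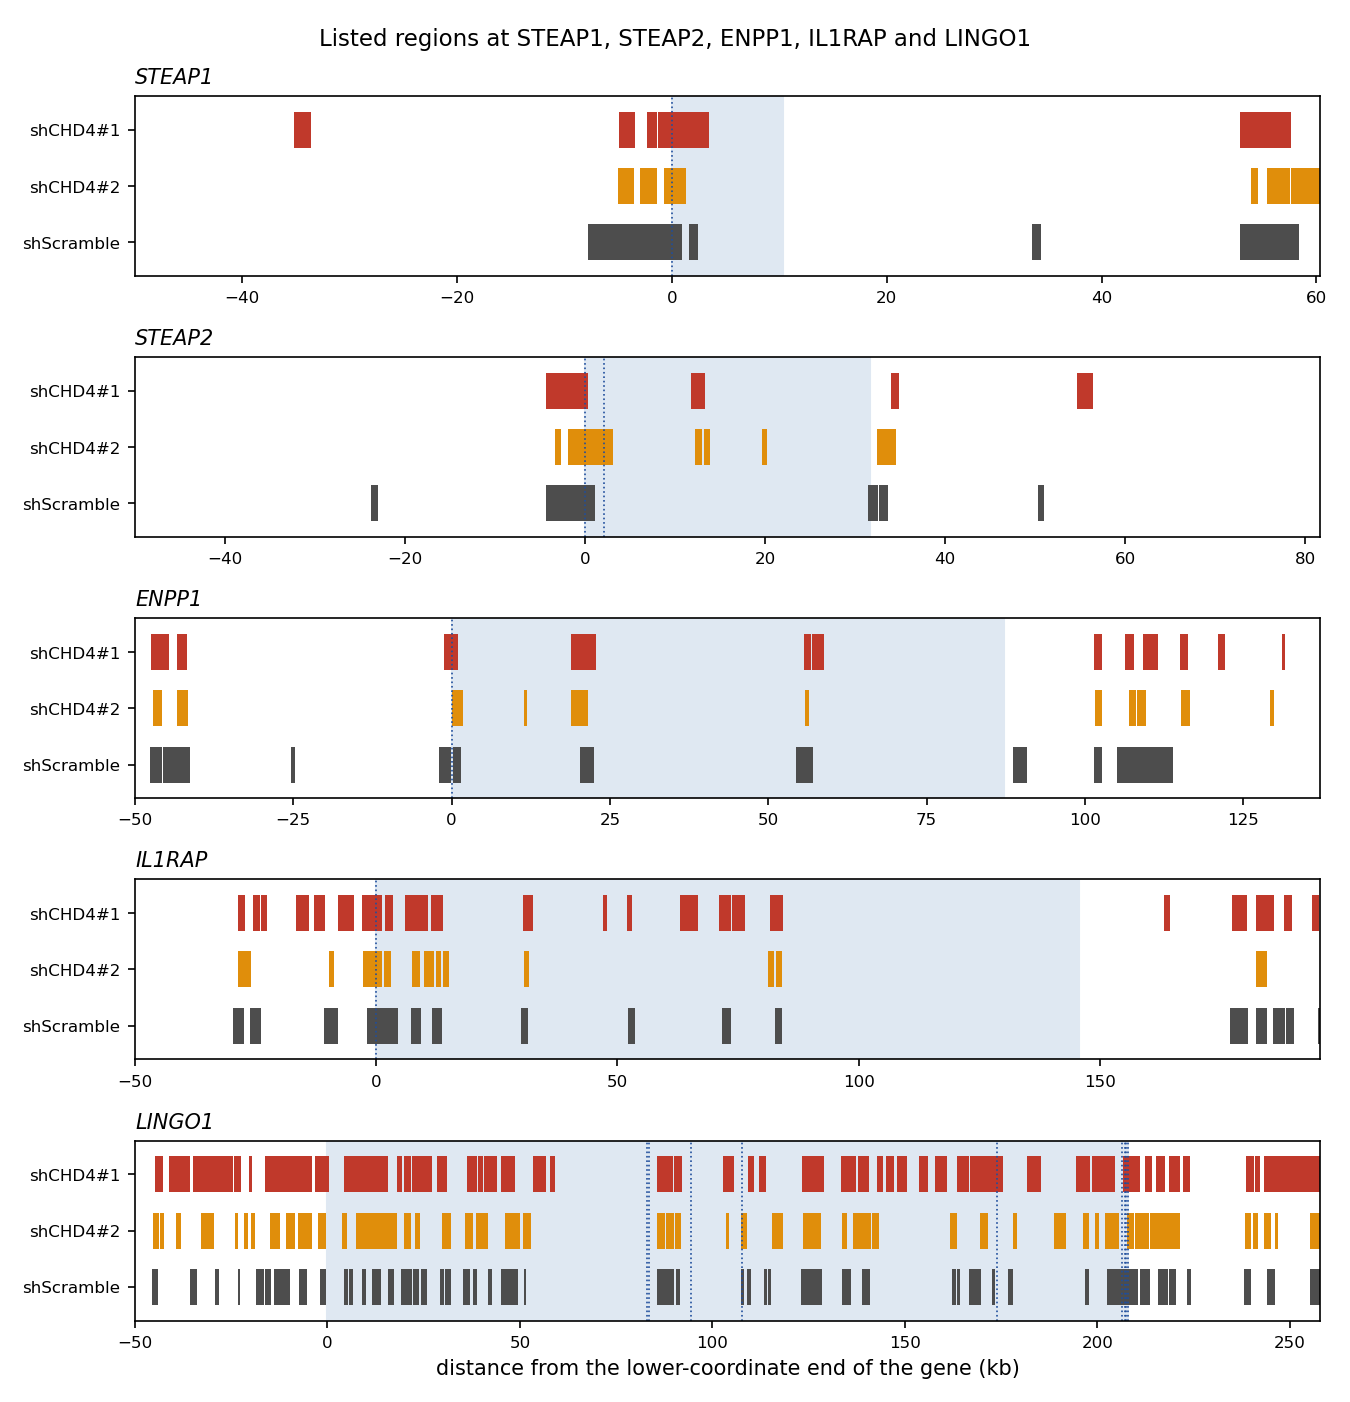
Listed regions (blocks) along the windows of STEAP1, STEAP2, ENPP1, IL1RAP and LINGO1 in the lists of hairpin 1, hairpin 2 and shScramble, with distance from the lower-coordinate end of each gene on the x axis (kb). Shading marks the gene and dotted lines the RefSeq start sites; a STEAP2 region within the gene appears in both hairpin rows only, and LINGO1 blocks fill more of the hairpin 1 row than of the others.

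NPY1R and NPY5R, which transmit the growth and vascular effects of neuropeptide Y, are neighbours on chromosome 4 (163323962 to 163344689 and 163343892 to 163352403). They share the same regions, 1 with hairpin 1, 2 with hairpin 2 and 2 with shScramble, all inside NPY1R. In regions per 100 kb the NPY1R window stood above only 4.22% of all genes with hairpin 1, 18.0% with hairpin 2 and 15.6% with shScramble. The merged region from 163329151 to 163332000 was in every list. It ranked close to the end with hairpin 2 (81430 of 83246, the 97.8% point) and shScramble (83250 of 85779, 97.05%). With hairpin 1 it stood at rank 81233 of 122874, the 66.1% point. The region at the NPY1R start at 163332596, 163332011 to 163334050, was listed with hairpin 2 (rank 23535) and shScramble (rank 15056). It was absent with hairpin 1, whose nearest region ended 596 bp from the start. The gene, on the minus strand, extends upstream of this start to 163344689, and no list had a region within 1 kb of that end. Such absence with hairpin 1 only was found at 4.34% of all promoters of 300 bases. The nearest region to an annotated NPY5R start was 11892 bp away with hairpin 1, 10422 bp with hairpin 2 and 9842 bp with shScramble.

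B4GALNT1, the enzyme that makes GM2 and GD2, lies on chromosome 12 from 57623409 to 57633201 among closely spaced genes. It showed the largest mean change of the 10 genes in region number, with 15 regions with hairpin 1, 12 with hairpin 2 and 8 with shScramble. The log2 ratio to shScramble, with 1 added, was 0.83 with hairpin 1 and 0.53 with hairpin 2. Covered length was 30 kb with hairpin 1, 15.4 kb with hairpin 2 and 11.4 kb with shScramble. The merged regions gained with both hairpins all lay in neighbouring genes, while hairpin 1 also had more regions in B4GALNT1 itself. Gained with both were 57582571 to 57586010 in KIF5A, a neuronal kinesin, 57604941 to 57607220 in DTX3, an E3 ubiquitin ligase gene, and 57611131 to 57611840 in ARHGEF25, a guanine nucleotide exchange factor. The KIF5A region was the single gained region of the 10 genes with an authors' p of 0.05 or less in both hairpin lists, at rank 14177 of 122874 with hairpin 1 and 9006 of 83246 with hairpin 2, with p of 0.0459 with hairpin 1 and 0.0319 with hairpin 2. The ARHGEF25 region ranked 25098 with hairpin 1 and 9455 with hairpin 2.

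Regions that touch B4GALNT1 itself numbered 3 with hairpin 1, 0 with hairpin 2 and 1 with shScramble. The upper end of the gene was covered with hairpin 1 (57632771 to 57634150, rank 26972) and with shScramble (57633191 to 57634250, rank 19073). With hairpin 2 the nearest region, 57634531 to 57635670, began 1330 bp past that end and was listed with hairpin 2 only. At the lower end, a merged region from 57621861 to 57627360 was present in every list but reached into the gene with hairpin 1 only. Hairpin 1 alone also listed 57628311 to 57632430 inside the gene. Elsewhere in the window 57578801 to 57582040, 57589961 to 57591320, 57599401 to 57604890 and 57612661 to 57617930 were in every list, and 57591501 to 57592530, 57609391 to 57610810 and 57656171 to 57657470 with hairpin 1 only. Exactly the same region numbers in the 3 lists were found at 6 protein-coding genes more than 1 Mb away, of which CEACAM21, DLL3 and MRPL54 come first by alphabet. The distance between numbers on the log2 scale was 0 for each of them over the 3 lists.

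ST8SIA1, the GD3 synthase gene on chromosome 12 (22193391 to 22334707), was sparsely listed, with 7 regions with hairpin 1, 3 with hairpin 2 and 3 with shScramble. Hairpin 1 alone listed 5 regions in its body: 22252731 to 22254970, 22255671 to 22256840, 22267801 to 22269170, 22287771 to 22289200 and 22313061 to 22314080. The best of them ranked 37889 and the worst 109386 of 122874. With lists of equal length ST8SIA1 had 5 regions with hairpin 1, 3 with hairpin 2 and 3 with shScramble. The merged region from 22333001 to 22336200 at the start was in every list. It covered the start with shScramble (22333001 to 22335380, rank 56210), and its nearest edge lay 34 bp before the start with hairpin 1 (22334741 to 22336200, rank 45302) and 44 bp before it with hairpin 2 (22334751 to 22335320, rank 61115). Inside the gene, the region from 22321161 to 22322630 was lost with both, and that from 22203661 to 22205270 was in every list. Neither ganglioside gene had a region with an authors' p of at most 0.05 within its own body in any list.

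CD99, the diagnostic antigen of Ewing sarcoma, lies in the pseudoautosomal part of chromosome X (2691295 to 2741309), which has an identical copy on Y. The gene was spanned in every list by the same region, 2580601 to 2751300. This region is 170700 bp wide, has an authors' second value of -3 and stands at rank 122743 with hairpin 1, 83118 with hairpin 2 and 85650 with shScramble, close to the end of each list. The lists hold 400 with hairpin 1, 403 with hairpin 2 and 396 with shScramble regions of negative value, 380 of them with the same coordinates in each. No narrower region was listed in CD99, so its promoter was not resolved in any list. The other regions of the window, 4 with hairpin 1, 2 with hairpin 2 and 2 with shScramble, lie in the neighbouring blood group gene XG. Of these, 2761691 to 2763330 and 2765071 to 2766300 were in every list, and 2763821 to 2764990 and 2766451 to 2767860 with hairpin 1 only.

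**Figure D5:**
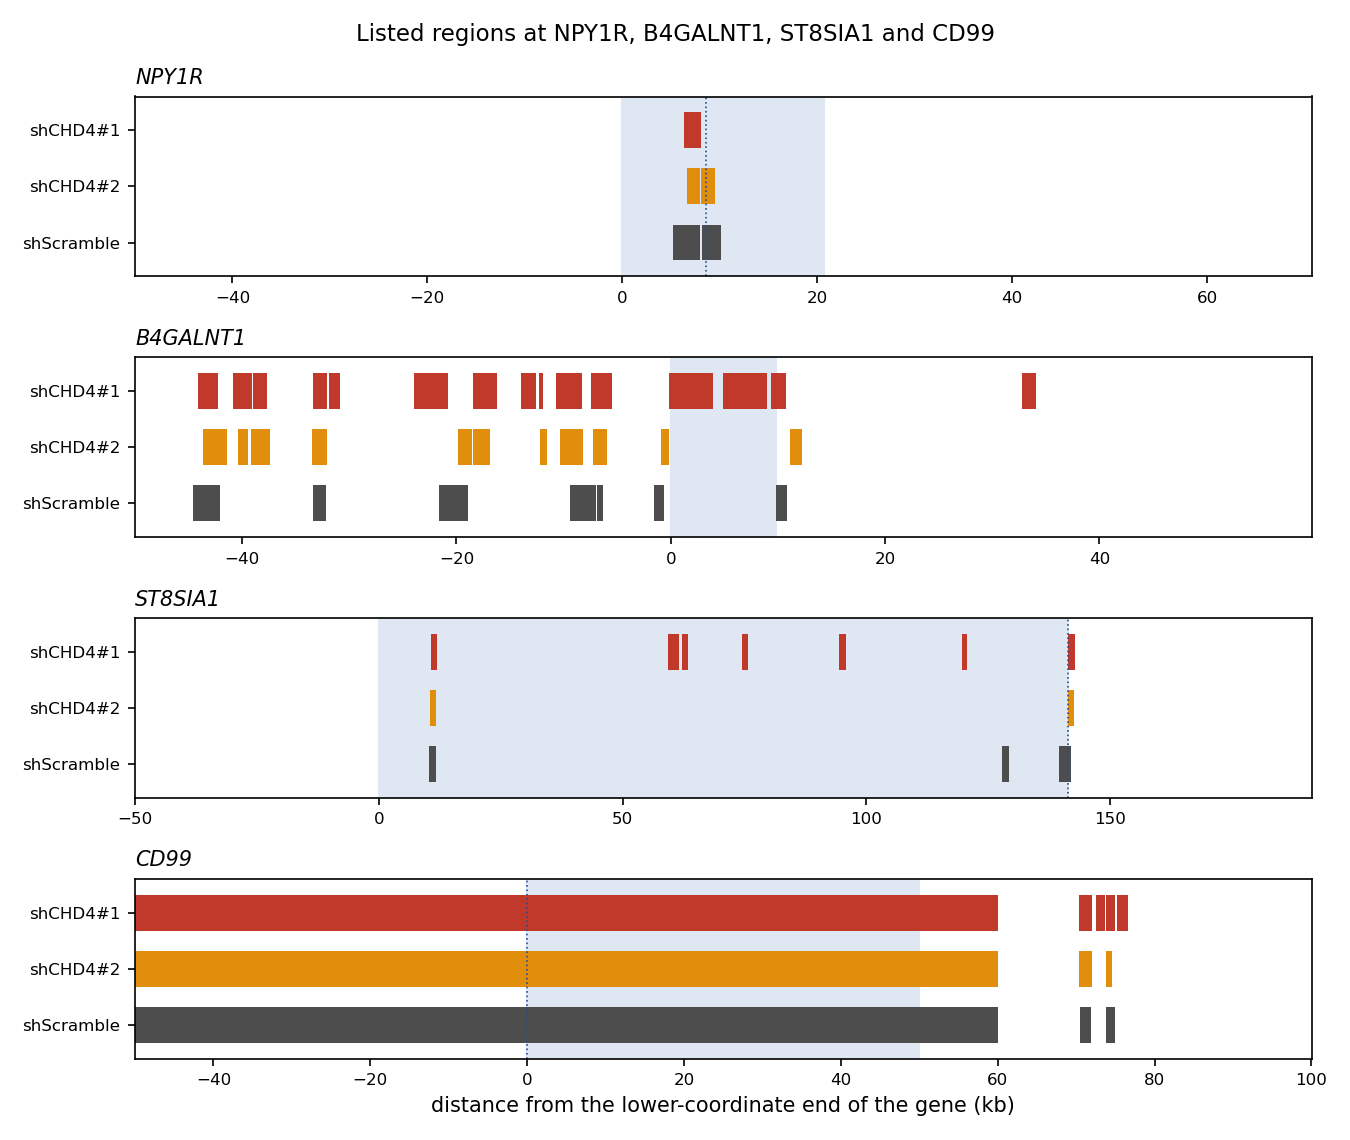
Listed regions (blocks) along the windows of NPY1R, B4GALNT1, ST8SIA1 and CD99 in the lists of hairpin 1, hairpin 2 and shScramble, with distance from the lower-coordinate end of each gene on the x axis (kb). Shading marks the gene and dotted lines the RefSeq start sites. The marked start of NPY1R, which is not the upper end of the gene, lacks a block with hairpin 1. ST8SIA1 carries 5 blocks with hairpin 1 only, and CD99 is spanned by the same wide block in every row.

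Most start sites had a region close by in every list. Of the 9 genes with a RefSeq start in the table, 8 had a region within 1 kb of a start with hairpin 1, 8 with hairpin 2 and 8 with shScramble. NPY5R was the exception, and CD99 counted through its wide region alone. These genes have 19 annotated starts, some with overlapping promoters. Their promoters of 300 bases were reached by a region at 10 starts with hairpin 1 (55.4% of all promoters), 9 with hairpin 2 (55.5%) and 12 with shScramble (48.7%). At 6 the promoter was reached in every list (38.5% of all) and at 5 in none (33.8%), namely 3 of LINGO1 and both of NPY5R. No promoter was gained with both hairpins, against 8.69% of all, and 1 was lost with both, at the LINGO1 start 77819452, against 2.43%. The promoter was absent with hairpin 2 only at 3 starts (ENPP1 and 2 of LINGO1) and with hairpin 1 only at 2 (NPY1R and 1 of LINGO1). At each of the 3 starts that hairpin 2 lacked, a hairpin 2 region lay within 1 kb. The shScramble region that reached the ENPP1 promoter ranked 83986 of 85779. The hairpin 1 region over those LINGO1 starts ranked 116888 of 122874. It was reached with hairpin 1 only at 1 LINGO1 start (4.82% of all) and with hairpin 2 only at the second STEAP2 start (3.96%).

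Of the 107 shScramble regions at the surface antigen genes, 81.3% overlapped one of hairpin 1 (Wilson 72.9 to 87.6) and 73.8% one of hairpin 2 (64.8 to 81.2). Over all chromosomes these shares were 77.4% for hairpin 1 and 64.3% for hairpin 2. Of the 110 hairpin 2 regions, 84.5% overlapped a hairpin 1 region, against 83.2% over the whole list.

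The wider pathways were described in the same way, with up to 4 genes named by the size of their mean change. Of 24 other genes of ganglioside synthesis, transport and breakdown, 8 had more regions with both hairpins and 2 had fewer, near the 35.2% and 11.9% of all genes. Their median log2 ratio was 0.25 with hairpin 1 and 0.00 with hairpin 2. The largest change was at ST3GAL5, the GM3 synthase that makes the substrate of ST8SIA1, with 19 regions with hairpin 1, 15 with hairpin 2 and 9 with shScramble. The sialidase gene NEU4 had 26 with hairpin 1, 12 with hairpin 2 and 10 with shScramble. The sialyltransferase gene ST8SIA5 had 14 with hairpin 1, 4 with hairpin 2 and 4 with shScramble, and CMAS, which activates sialic acid, had 4 with hairpin 1, 3 with hairpin 2 and 2 with shScramble.

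Of 33 other genes in the families of the surface antigens and their ligands, 17 had more regions with both hairpins and 3 had fewer, beside 35.2% and 11.9% of all genes. Their median log2 ratio was 0.81 with hairpin 1 and 0.08 with hairpin 2, beside 0.36 with hairpin 1 and 0.00 with hairpin 2 over all genes. Several of these genes are neighbours and share regions. The interleukin-33 receptor gene IL1RL1 had 3 regions with hairpin 1, 1 with hairpin 2 and 0 with shScramble. IL1B, which encodes interleukin-1 beta, had 13 with hairpin 1, 8 with hairpin 2 and 4 with shScramble. LINGO3, a paralogue of LINGO1, had 23 with hairpin 1, 22 with hairpin 2 and 10 with shScramble, and the interleukin-36 receptor gene IL1RL2 had 5 with hairpin 1, 2 with hairpin 2 and 1 with shScramble.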

How the data were processed

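The 9 samples are ATAC-seq libraries grouped by their titles. The submitters' processing notes name FastQC 0.11.7, Trimmomatic 0.36, BWA, deepTools 3.2.1 and SAMtools 1.9, and the builds GRCh38 and dm6. For the peak caller, a Tn5 shift and spike-in scaling, nothing is given in the sources used here. The deposited lists, 1 per group, carry the name of ChIP-R, which combines replicate peak lists, and are filed under replicate 1. That they combine replicates is an inference. Each region has from the authors a score, a second score with no stated unit, and deposited p-values and q-values. These were used only to rank or filter within a list. The lists hold no read counts, so depth is unknown.

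Every region on chromosomes 1 to 22, X and Y was kept. Gene positions, starts and promoters are RefSeq GRCh38.p14. All 10 genes matched by symbol, and 9 have a start in the promoter table. Overlap meant at least 1 bp. Counts were made in Python 3.11.15 (pandas 2.3.3) and checked on simulated regions. Members and gene lists were chosen with earlier results of these data known. Named genes were all members, up to 4 genes per pathway list by mean change, genes holding or nearest to gained or lost regions, and 3 genes most like the member that changed most. Exons and introns are not analysed here.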

Additional observations from a re-analysis of the deposited data

Results flagged for a closer look

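At 3 genes the hairpins lay on opposite sides of shScramble in region number. This difference was not tested, since each group has 1 list. STEAP2 had 6 regions with hairpin 1, 10 with hairpin 2 and 7 with shScramble. ENPP1 had 14 with hairpin 1, 11 with hairpin 2 and 13 with shScramble. IL1RAP had 23 with hairpin 1, 14 with hairpin 2 and 16 with shScramble. With every list cut to the length of the shortest, STEAP2 had 4 with hairpin 1, 10 with hairpin 2 and 7 with shScramble. ENPP1 then had 11 in each list, and IL1RAP had 13 with hairpin 1, 14 with hairpin 2 and 16 with shScramble. With 5 kb on both sides of the gene, STEAP2 had 5 with hairpin 1, 10 with hairpin 2 and 5 with shScramble, and IL1RAP had 13 with hairpin 1, 10 with hairpin 2 and 8 with shScramble. ENPP1 had 5 with hairpin 1, 4 with hairpin 2 and 6 with shScramble.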

How the results depend on the processing

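No paired analysis was possible because each group has 1 deposited list, and for the same reason no replicate could be left out. The counts rest on few regions. Members with fewer regions with both hairpins numbered 0 as reported, 1 where the authors' p was 0.05 or less, 3 among the best 20000 regions, 1 with 5 kb and 2 with 100 kb on both sides. NPY1R and NPY5R, whose windows overlap and whose numbers were the same, are 2 of the 3 among the best 20000 regions. They are also the 2 with 100 kb. With 5 kb, 1 member had more with both (IL1RAP, in place of STEAP1 and B4GALNT1), 3 merged regions were gained and 4 lost. Where p was 0.05 or less, 3 were lost and both ratios of region number to shScramble were 1.88, from 15 with hairpin 1, 15 with hairpin 2 and 8 with shScramble. Of these, LINGO1 alone held 8 with hairpin 1, 10 with hairpin 2 and 3 with shScramble. The whole lists held 14673 such regions with hairpin 1, 10944 with hairpin 2 and 10781 with shScramble. With the best 20000 regions, 5 were gained and the hairpin 1 ratio was 0.85. Requiring an overlap of 50% of the shorter region gave 15 lost. Cutting every list to the 83246 regions of the shortest, chosen after seeing the data, gave 1 member with fewer with both, 17 lost and a hairpin 1 ratio of 0.814. Of 186 values for single genes and start counts, 96 moved by over 1.5 times or reached 0. They include every single-gene count at p of 0.05 or less and among the best 20000 regions. These settings keep only a small part of each list, so lower counts follow from the setting itself and do not measure instability. The cause of the other shifts was not tested.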
